A study of Mus musculus with 13 samples.

Results

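CKIα KO/p53 KO enterocytes were compared with CKIα Het/p53 KO enterocytes. This asked how gene expression differs with loss of casein kinase Iα (CKIα) where p53 is also missing. The order of the losses is not given in the sources used here. The comparison took 4 of the 13 arrays of the study, chosen by their titles: replicates 1 and 2 of CKIα KO/p53 KO and replicates 1 and 2 of CKIα Het/p53 KO. An array whose title makes it number 3 of the same group was left out, since its genotype is labelled CKI KO with no mention of p53. Of 19938 genes with a probe set of their own, 16721 passed a filter on dim values and were tested. Both groups were enterocytes of 129/SVJ mice and both lacked p53. The CKIα KO/p53 KO group, called the double knockout here, was homozygous for a knockout of CKIα restricted to the gut. The CKIα Het/p53 KO group, called the control, carried that knockout in heterozygous form, so it is no wild-type control. The driver and timing of the gut knockout, the age of the mice, the extent of the deletion and any pooling of animals are not given in the sources used here. The labels call the 2 arrays of a group biological replicates without stating that they came from separate animals, so p-values measure only the spread between these samples.

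CKIα, encoded by Csnk1a1, belongs to the destruction complex, in which it places the priming phosphate on β-catenin that leads to its degradation. When the complex fails, β-catenin builds up, enters the nucleus and switches on genes through TCF/LEF factors. In the intestine this Wnt signal normally keeps stem and progenitor cells of the crypt dividing and fades as cells move onto the villus and become absorptive or secretory. p53 is a transcription factor that answers DNA damage and oncogenic stress by halting the cell cycle or killing the cell, partly through its target p21.

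The arrays carried the mark of gut epithelium in both groups. Krt8, an epithelial keratin, had log2 levels of 12.95 and 13.03 on the double knockout arrays and 13.05 and 12.96 on the control arrays. Epcam, an epithelial adhesion molecule, lay between 11.55 and 11.66 on the 4 arrays, and neither gene was called. Sucrase-isomaltase (Sis), a sugar-splitting enzyme that defines mature enterocytes, was at 12.80 and 12.90 on the control arrays. Csnk1a1 had log2 levels of 10.58 and 10.80 in the double knockout and 10.78 and 10.71 in the control, which left a log2 difference of -0.05 with an SE of 0.13 (n = 2 per group, adjusted p = 0.805). That value does not check the genotype, because the deleted part of the gene is not given in the sources used here, and its sign turned after quantile normalization and without double knockout replicate 1. Ctnnb1, which encodes β-catenin itself, differed by 0.00. No probe set names Trp53 or Cdkn1a, the genes of p53 and p21, alone. Across genes, replicates correlated at 0.987 in the control and 0.982 in the double knockout, with 173 and 369 genes more than 2-fold apart within these pairs.

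Without p53, loss of CKIα came with large expression differences in both directions. By limma, a linear model whose spread was pooled over the 6 groups of the study, 1841 genes (11.0% of those tested) were higher and 1140 (6.82%) lower in the double knockout at a Benjamini-Hochberg adjusted p under 0.05, and such genes are called here. At an unadjusted p under 0.05 there were 5773 genes (34.5%). The median size was 1.93-fold for genes called higher and 1.86-fold for genes called lower, and 30 of the first (0.179% of all genes) and 37 of the second (0.221%) changed by more than 8-fold. The median difference over all genes tested was -0.06 (log2). Counts of list members called below are to be read beside the shares of all genes, 11.0% higher and 6.82% lower. Both double knockout arrays lay above both control arrays for 28.9% of all genes and below both for 35.7%. Called genes tend to lie apart by group through their choice, so such remarks below only describe values. The calls leaned on each single array: without control replicate 1 they fell to 10 higher and 10 lower, without control replicate 2 to 402 and 253, without double knockout replicate 1 to 869 and 452, and without double knockout replicate 2 to 161 and 90. An arm left with 1 array is assumed to vary like the other groups. Below, list counts with 1 array left out are always given in the order control replicate 1, control replicate 2, double knockout replicate 1, double knockout replicate 2. Of 533 called genes that were named or sat in a list, 524 lost their call without control replicate 1, and none turned its direction under any alternative tried. The genes were chosen for their calls, so a kept direction is largely set by that choice. Among the genes named below, a further quantile normalization ended the calls of Apob, Btc, Cyp1a1, Dnmt1, Mki67, Muc2, Myo1a, Noxo1, Npc1l1, Prom1, Slc5a1, Sox4, Sox9, Ugt2b34 and Wnt2. Testing without the filter ended those of Lgr4, Nts, Slc27a2 and Sox9, the replicate block those of Cd24a and H2-DMa, and a fit of only the arrays compared those of Cyp1a1, Ltc4s, Nfe2l2, Phgdh, Slc38a2 and Wnt9b. Genes that lost their call in more of these alternatives are marked where they appear.

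The 20 genes that kept their call even without control replicate 1 are called the core here, a set defined only by that selection. Cyp1b1, a cytochrome P450 that oxidizes steroids and aromatic compounds, was at 6.01 and 6.57 (log2 level) in the double knockout and 3.88 and 3.64 in the control, and rose 5.75-fold, a log2 difference of 2.52 ± 0.19 (adjusted p = 0.0007; differences are given with their SE and 2 arrays per group throughout). Slc38a4, an amino acid transporter, was at 7.14 and 7.16 against 3.83 and 3.83 and rose by log2 3.32 ± 0.25 (adjusted p = 0.0007). Dglucy, a mitochondrial D-glutamate cyclase, was at 5.81 and 5.85 against 8.26 and 7.99 and fell 4.92-fold (-2.30 ± 0.17, adjusted p = 0.0007). In each of these genes the gap between groups was several times the gap within either, which their choice by small p-values largely sets. The core also held the Wnt inhibitor Axin2, the cystine importer Slc7a11, the serine synthesis enzyme Psat1, the polyamine oxidase Smox, the oxidase maturation factor Duoxa2, the matrix proteoglycan Spock2, the nuclease-like Endod1 and the predicted gene Gm10791 among the risers. Its fallers included Slc5a4a, the calcium-binding oncomodulin (Ocm), the proton channel Otop3, the amino acid transporter Slc6a20b, the glyoxalase Hagh, the chemokine Ccl24, the innate sensor Naip5, the transcription factor Klf15 and the folate enzyme Aldh1l1. Ocm was at 4.60 and 4.48 against 7.92 and 7.40 and fell 8.71-fold, and Spock2 was at 7.34 and 8.52 against 5.21 and 4.73 and rose 7.77-fold. Genes of this core outside the naming rule were picked after their calls were seen.

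**Figure D1:**
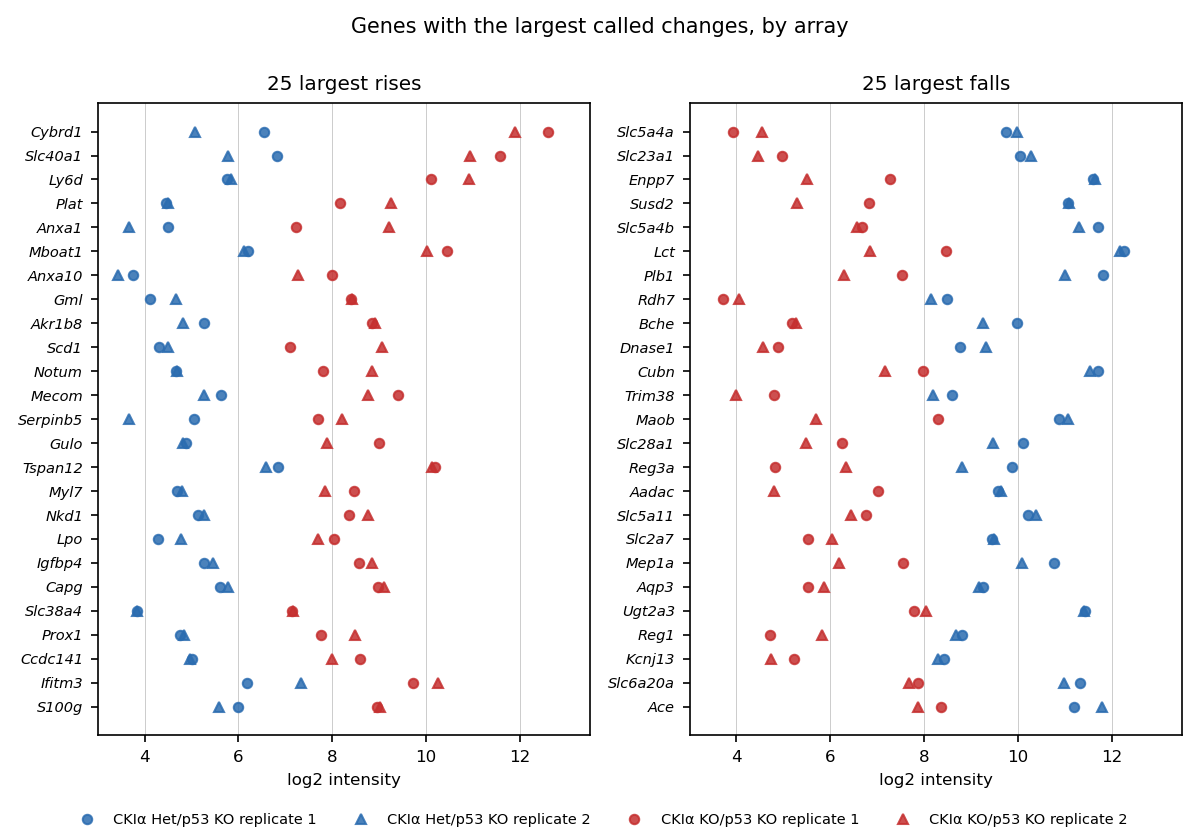
Log2 level of the 25 genes with the largest and the 25 with the most negative called difference, 1 point for each double knockout and control array. In the top riser Cybrd1 the double knockout arrays lie at 12.60 and 11.90 and the control arrays at 6.55 and 5.07, and in the top faller Slc5a4a at 3.93 and 4.55 against 9.75 and 9.99.

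The 25 largest rises spanned iron handling, lipid remodelling, surface proteins and Wnt inhibitors. Cybrd1, the duodenal reductase that prepares dietary iron for uptake, was at 12.60 and 11.90 (log2 level) in the double knockout and 6.55 and 5.07 in the control, and rose 87.1-fold (log2 6.44 ± 1.01, adjusted p = 0.00771). Ly6d, a surface antigen anchored to the membrane by lipid, was at 10.10 and 10.91 against 5.75 and 5.84 and rose 26.1-fold (4.71 ± 0.93). Mboat1, an enzyme that puts fatty acids back onto phospholipids, was at 10.46 and 10.03 against 6.21 and 6.13 and rose 16.9-fold (4.08 ± 0.50). In all 3 genes each double knockout array was far above each control array. Gml, another protein of the Ly6 family, was at 8.40 and 8.43 against 4.12 and 4.67 (log2 4.02 ± 0.57). Akr1b8, an aldo-keto reductase that clears reactive aldehydes, was at 8.86 and 8.91 against 5.26 and 4.83 and rose 14.3-fold. Mecom, a zinc finger transcription factor, was at 9.40 and 8.76 against 5.63 and 5.26 and rose 12.4-fold. Tspan12, a tetraspanin that works with Frizzled receptors, was at 10.20 and 10.13 against 6.84 and 6.58 (log2 3.46). Gulo, the last enzyme of vitamin C synthesis, rose 12.1-fold (3.59 ± 1.00), the lactoperoxidase gene Lpo 10.2-fold and the actin-capping gene Capg 10.1-fold. Replicates could still differ widely: Anxa1, an annexin that binds membrane phospholipids, was at 7.24 and 9.21 against 4.5 and 3.67, and Scd1, which desaturates fatty acids, at 7.11 and 9.07 against 4.31 and 4.49.

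The 25 largest falls mixed transporters and digestive enzymes with secreted proteins and enzymes of the cell interior. Slc5a4a and Slc5a4b, of the sodium-glucose cotransporter family, were at 3.93 and 4.55 and at 6.68 and 6.56 (log2 levels) in the double knockout against 9.75 and 9.99 and 11.71 and 11.31 in the control, and fell 49.5-fold and 29.6-fold. These are near-identical neighbours, and cross-hybridization between them was not tested. Slc23a1, the intestinal vitamin C transporter, was at 4.96 and 4.46 against 10.05 and 10.27 and fell 43.6-fold (-5.45 ± 0.79). Enpp7, which digests sphingomyelin, was at 7.28 and 5.50 against 11.61 and 11.64 and fell 37.7-fold (-5.24 ± 0.91). All were lower on both double knockout arrays than on either control array. Susd2, a membrane protein with sushi domains, fell 32.4-fold and the secreted nuclease Dnase1 19.8-fold. Trim38, a ubiquitin ligase of innate signalling, was at 4.81 and 4.0 against 8.60 and 8.19 (-3.99 ± 0.59), and Maob, a mitochondrial monoamine oxidase, at 8.30 and 5.70 against 10.88 and 11.07 (-3.97 ± 0.88). Butyrylcholinesterase (Bche) had a log2 difference of -4.39 ± 0.69. Rdh7, which oxidizes retinol, was at 3.72 and 4.06 against 8.49 and 8.15 and fell 21.6-fold. Plb1, a brush border phospholipase, was at 7.54 and 6.29 against 11.82 and 11.00 and fell 22.5-fold. Slc28a1, a nucleoside transporter, fell 15.0-fold, the deacetylase Aadac 12.9-fold and Aqp3, a channel for water and glycerol, 11.5-fold (log2 -3.52 ± 0.38, adjusted p = 0.00427). Kcnj13, a potassium channel, was at 5.22 and 4.73 against 8.43 and 8.29 (log2 -3.38 ± 0.48).

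In the Wnt pathway, genes called higher lay mainly among inhibitors and targets, while the ligands had low levels. Of 18 listed feedback inhibitors, which Wnt signalling induces and which restrain it in turn, 16 passed the filter; limma called 8 higher (beside 11.0% of all genes) and 0 lower (2 at an unadjusted p under 0.05), and the median was 1.16. Notum, a secreted enzyme that removes the lipid from Wnt ligands, was at 7.81 and 8.84 (log2 level) in the double knockout and 4.67 and 4.69 in the control, and rose 12.5-fold (3.65 ± 0.75, adjusted p = 0.0137). Nkd1, an inhibitor of Dishevelled, was at 8.37 and 8.77 against 5.14 and 5.27 and rose 10.3-fold (3.37 ± 0.42, adjusted p = 0.00526). Axin2, a scaffold of the destruction complex, was at 9.20 and 9.23 against 6.73 and 7.0 and rose 5.10-fold (2.35 ± 0.23). None of these overlapped between groups. Rnf43 and Znrf3, ubiquitin ligases that strip Wnt receptors from the surface, rose by log2 2.15 ± 0.32 and 1.75 ± 0.34, and the secreted antagonists Dkk2, Wif1 and Dkk3 by 1.77, 1.65 and 1.15. Apcdd1, a membrane inhibitor, was high on 1 array only, with 5.73 and 7.97 against 5.81 and 5.56, and was not called. With 1 array left out, 1, 5, 9 and 4 inhibitors were called higher.

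Of 22 tested ligands and R-spondins, 0 were called higher by limma (0 at an unadjusted p under 0.05) and 3 lower, namely Wnt3a (log2 -0.74), Wnt2 (-0.62) and Wnt9b (-0.50). Their mean log2 level was 4.69 and 4.67 in the double knockout and 4.84 and 4.85 in the control. These means lie under the medians of the arrays (4.96 to 5.03), so differences among ligands are hard to read. Of 18 receptors, Lgr4, which binds R-spondins, rose from 9.44 and 8.99 to 10.32 and 10.53 (log2 levels), and Fzd5, a Frizzled receptor, fell from 8.15 and 8.18 to 7.15 and 7.41. Among 13 nuclear partners, Bcl9, a β-catenin co-activator, rose 4.20-fold (2.07 ± 0.35, adjusted p = 0.00858), with 9.11 and 8.68 against 6.75 and 6.90. Lef1, a DNA-binding partner of β-catenin, rose by log2 1.59 from 4.84 and 5.36 to 6.63 and 6.75, while Tcf7l2, the main such factor of the gut, differed by -0.02 and was not called. Of 16 genes of the destruction complex and the CK1 family, the kinase Csnk1e alone was called; it rose 2.07-fold (1.05 ± 0.25), with 7.46 and 7.79 against 6.75 and 6.40. When single arrays were dropped, 0 of the ligands and 0 of the receptors were called in any of the 4 fits, and 0, 1, 1 and 1 of the nuclear partners.

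Of 25 tested transcription factors and effectors known as Wnt targets, 13 (52.0%) were called higher and 0 lower by limma (0 at an unadjusted p under 0.05), with a median of 1.11. Prox1, a homeobox factor, was at 7.76 and 8.49 (log2 level) in the double knockout and 4.75 and 4.85 in the control and rose 9.98-fold (3.32 ± 0.51, adjusted p = 0.00763). Mmp7, a protease made by Paneth cells, was at 10.11 and 10.71 against 7.60 and 7.77 and rose 6.61-fold. Myc, a growth-promoting transcription factor, was at 9.22 and 9.44 against 6.79 and 6.83 and rose 5.74-fold (2.52 ± 0.55, adjusted p = 0.0171). All these values stood well apart by group. Gpx2, a peroxidase of crypt cells, rose 5.02-fold, Ccnd2, a G1 cyclin, 4.15-fold, and the receptor Ephb3, which positions cells along the crypt, 3.86-fold. Sox9, a factor of progenitors and Paneth cells, rose by log2 1.77 from 6.34 and 6.62 to 8.49 and 8.01, and Sox4 by 1.65. Ccnd1, the related G1 cyclin, had a difference of 1.11 and an adjusted p of 0.102. In the 4 leave-one-out fits, 0, 3, 5 and 1 targets were called higher.

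Of 23 tested crypt base markers, genes concentrated in intestinal stem cells, 12 (52.2%) were called higher and 0 lower by limma (1 at an unadjusted p under 0.05), with a median of 0.93. The 12 included genes counted in other lists: the feedback inhibitors Axin2, Rnf43 and Znrf3, the Wnt target Sox9, and Cdk6, a G1 kinase. Igfbp4, a secreted binding protein, was at 8.58 and 8.85 (log2 level) in the double knockout against 5.27 and 5.47 in the control and rose 10.1-fold (3.34 ± 0.68, adjusted p = 0.0134). Cdca7, a chromatin factor, rose 2.99-fold, the RNA-binding protein Msi1 2.79-fold and the surface marker Prom1 2.05-fold. The most used stem cell genes were not among the calls. Lgr5 was at 6.65 and 5.90 against 5.73 and 5.0 (log2 difference 0.91, adjusted p = 0.069), and Ascl2, a master factor of stem cell identity, was at 6.37 and 6.0 against 5.16 and 5.08 (1.07, adjusted p = 0.0779). Olfm4 was at 10.04 and 8.19 against 10.61 and 10.77, and Smoc2 differed by -0.10. Thus Ascl2 and Lgr5 stood above the control on both double knockout arrays, Olfm4 below, and all 4 missed the threshold. Across fits lacking 1 array, 1, 2, 4 and 2 markers were called higher.

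Of the 61 lists, the machinery that builds ribosomes had the highest share of calls. Of 49 tested genes of ribosome biogenesis and the nucleolus, 43 (87.8%) were called higher and 0 lower by limma (0 at an unadjusted p under 0.05), and the median was 1.38. All 49 tested had both double knockout arrays above both control arrays, beside 28.9% of all genes (35.7% of all genes had both below). Nucleophosmin (Npm1), a ribosome chaperone, was at 10.07 and 10.11 (log2 level) against 8.10 and 8.23 and rose 3.79-fold (1.92 ± 0.22, adjusted p = 0.00507). Nucleolin (Ncl) was at 10.32 and 10.62 against 8.61 and 8.88 and rose 3.32-fold (1.73 ± 0.27). The pseudouridine complex members Nhp2 and Dkc1 rose 3.63-fold and 3.20-fold, and the proteins Nop56, Nop58 and Fbl, which methylate ribosomal RNA, 3.16-fold, 3.07-fold and 2.74-fold. RNA polymerase I, which makes ribosomal RNA, was part of the pattern: Polr1a was at 7.73 and 7.72 against 6.16 and 6.51, and Polr1b rose 2.42-fold. After removal of 1 array, 0, 25, 32 and 5 genes were called higher.

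Metabolic genes often induced by Myc followed a like course: 21 of 29 tested (72.4%) were called higher and 1 lower, with a median of 0.99. Ctps, which makes CTP, was at 7.46 and 7.55 (log2 level) against 5.62 and 5.67 and rose 3.63-fold (1.86 ± 0.28). Cad, which starts pyrimidine synthesis, was at 7.48 and 7.5 against 6.11 and 6.12 and rose by log2 1.37 ± 0.17 (adjusted p = 0.00526). The folate enzyme Mthfd1l rose 3.38-fold, Ppat, the first step of purine synthesis, 3.22-fold, and the spermidine synthase Srm 3.03-fold. The groups were cleanly apart in each. Once 1 array was removed, 0, 10, 8 and 5 of these genes were called higher.

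Genes of DNA replication and of mitosis rose together. Of 46 tested replication genes, 28 (60.9%) were called higher and 0 lower by limma (0 at an unadjusted p under 0.05), median 0.99; of 56 mitosis and spindle genes, 35 (62.5%) were higher and 0 lower (0 unadjusted), median 1.01. Mcm7, a subunit of the helicase that opens DNA for copying, was at 8.55 and 8.74 (log2 level) in the double knockout against 7.03 and 7.32 in the control and rose 2.76-fold (1.46 ± 0.28, adjusted p = 0.0111). Rfc3, of the clamp loader, was at 7.34 and 7.59 against 6.52 and 6.34 and rose 2.05-fold (1.04 ± 0.24). Dnmt1, which copies DNA methylation to new strands, was at 8.36 and 8.42 against 7.07 and 7.58 and rose 2.09-fold. No control array reached a double knockout array in these genes. Rrm1, of ribonucleotide reductase, rose 3.18-fold, and Mcm3, another helicase subunit, 3.16-fold. Ncapg, a condensin subunit, was at 7.94 and 7.83 against 6.29 and 6.67 and rose 2.65-fold (1.41 ± 0.28). Smc2, the condensin ATPase, was at 7.98 and 8.09 against 6.71 and 7.0 and rose 2.27-fold. Ect2, which triggers the cleavage furrow, was at 8.92 and 9.08 against 7.57 and 7.85 and rose 2.45-fold. The mitotic kinase Plk1 rose 2.73-fold, the furrow scaffold anillin (Anln) 2.67-fold, and the proliferation marker Mki67 2.08-fold. With 1 array left out, 0, 6, 8 and 1 replication genes and 0, 3, 3 and 0 mitosis genes were called higher, and quantile normalization left 17 mitosis genes.

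Promoters of these genes were read because the members moved together and because textbook promoter elements exist for both lists: the CHR element TTTGAA of genes active in mitosis and the E2F site, searched as TTTNNCGC, of genes active in replication. Windows ran from 250 bases before to 50 after each RefSeq start on GRCm38.p6, both strands were searched, and 13169 of 16721 tested genes had a window. TTTGAA was found for 33 of 48 mitosis genes (68.8%), beside 15.1% of tested genes and 20.2% of all 27025 promoters. Among mitosis genes it was found for 20 of 29 called higher (69.0%) and 13 of 19 not called (68.4%). TTTNNCGC was found for 16 of 39 replication genes (41.0%), beside 8.35% of tested genes and 5.93% of all promoters, with 8 of 25 called higher (32.0%) and 8 of 14 not called (57.1%). In the mitosis list the share was thus nearly equal in called and uncalled genes, and the difference within either list was not tested. Over all genes called higher, TTTGAA was found for 16.6% and TTTNNCGC for 13.1%. CACGTG, the E-box that Myc can bind, was found for 8 of 42 ribosome biogenesis genes (19.0%) beside 10.5% of tested genes. The TCF/LEF motif CTTTGAT, which shares TTTGA with the CHR letters, was found for 0 of 10 feedback inhibitors and 2 of 15 Wnt target factors and effectors (13.3%) beside 3.34% of tested genes. The motifs were chosen with the results known, and a match is a description of letters, not a site. The 250 bases before the start are printed 5′ to 3′ along the gene's strand for 3 mitosis genes, with the CHR match on either strand in capitals, and for 3 replication genes with the E2F match in capitals. They lie at chr5:45669675-45669924 (Ncapg, plus strand), chr4:52438971-52439220 (Smc2, plus), chr3:27153879-27154128 (Ect2, minus), chr5:138171884-138172133 (Mcm7, minus), chr5:151651209-151651458 (Rfc3, minus) and chr9:20952624-20952873 (Dnmt1, minus, 2 overlapping matches).
Ncapg: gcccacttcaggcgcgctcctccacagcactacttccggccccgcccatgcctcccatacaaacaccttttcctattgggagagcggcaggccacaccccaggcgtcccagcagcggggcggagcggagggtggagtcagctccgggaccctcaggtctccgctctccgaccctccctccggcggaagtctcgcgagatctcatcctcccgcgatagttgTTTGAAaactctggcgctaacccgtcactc
Smc2: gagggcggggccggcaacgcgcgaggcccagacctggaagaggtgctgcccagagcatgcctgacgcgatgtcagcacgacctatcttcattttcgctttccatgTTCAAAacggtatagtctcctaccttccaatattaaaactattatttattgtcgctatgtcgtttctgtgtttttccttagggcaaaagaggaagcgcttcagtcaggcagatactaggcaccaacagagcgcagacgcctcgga
Ect2: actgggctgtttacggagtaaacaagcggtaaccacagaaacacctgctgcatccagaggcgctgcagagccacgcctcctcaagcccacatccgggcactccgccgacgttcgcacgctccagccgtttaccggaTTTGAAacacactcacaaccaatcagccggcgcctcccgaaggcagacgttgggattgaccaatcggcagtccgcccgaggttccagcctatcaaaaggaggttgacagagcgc
Mcm7: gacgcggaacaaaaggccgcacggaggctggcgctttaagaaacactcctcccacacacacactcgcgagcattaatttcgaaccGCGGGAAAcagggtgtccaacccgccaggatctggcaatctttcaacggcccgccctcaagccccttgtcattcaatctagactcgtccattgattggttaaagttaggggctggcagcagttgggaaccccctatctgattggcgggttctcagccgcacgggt
Rfc3: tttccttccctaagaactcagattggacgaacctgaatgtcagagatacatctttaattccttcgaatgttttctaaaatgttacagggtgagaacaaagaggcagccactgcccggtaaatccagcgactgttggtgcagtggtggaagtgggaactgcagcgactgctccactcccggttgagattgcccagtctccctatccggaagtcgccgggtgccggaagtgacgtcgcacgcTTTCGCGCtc
Dnmt1: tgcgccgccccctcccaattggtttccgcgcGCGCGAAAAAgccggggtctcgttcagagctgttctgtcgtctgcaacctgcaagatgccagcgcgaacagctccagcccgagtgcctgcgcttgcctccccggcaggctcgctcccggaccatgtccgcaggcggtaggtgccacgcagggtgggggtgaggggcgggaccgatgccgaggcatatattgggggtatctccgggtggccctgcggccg
The capitals lie 30 bases before the start in Ncapg, 145 in Smc2 and 114 in Ect2, and 165 bases before it in Mcm7 and 10 in Rfc3. Ect2 has another annotated start, not printed, from which the same letters lie 138 bases. Smc2 carries the CHR letters on the opposite strand, as Mcm7 and Dnmt1 do the E2F letters.

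At the G1 gate, 6 of 28 tested cyclins, kinases, inhibitors and E2F factors were called higher (21.4%) and 2 lower (7.14%). All genes had 11.0% and 6.82%, and the median of the list was 0.36. Rb1, the retinoblastoma brake on E2F, fell 2.56-fold (log2 -1.36 ± 0.22, adjusted p = 0.00783), from log2 levels of 9.36 and 9.15 to 8.04 and 7.75. Cdkn2b, the inhibitor p15, fell from 8.78 and 8.47 to 7.54 and 7.88 (-0.91). Rb1 and Cdkn2b were thus lower on each double knockout array, but other inhibitors of the Cdkn family varied. Cdkn1c was higher, at 7.30 and 7.15 against 6.88 and 6.94, as was Cdkn2d, at 5.76 and 5.71 against 5.55 and 5.56. Cdkn1b and Cdkn2c overlapped between groups, and Cdkn2a was slightly lower, at 5.01 and 5.04 against 5.09 and 5.18. None of these others was called. Cdk4 and Cdk6, the kinases that act on Rb1, rose by log2 0.96 and 0.93, and E2f6 and E2f3 by 1.20 and 0.94. When single arrays were dropped, 0, 2, 3 and 2 were called higher and 0, 1, 1 and 0 lower. Of 37 tested genes of DNA damage checkpoints and repair, 20 (54.1%) were called higher and 0 lower by limma (0 at an unadjusted p under 0.05), median 0.76. The replication fork protein Tipin rose 2.77-fold, Rad18, a ligase for damage bypass, 2.68-fold, the recombination factor Brca1 2.63-fold, the helicase Blm 2.59-fold and the sensor kinase Atr 2.52-fold. In the 4 leave-one-out fits, 0, 4, 4 and 1 repair genes were called higher.

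Genes that p53 activates, read here in cells labelled as lacking it in both groups, had a median of -0.06 over 36 tested. All genes had the same median. Of the 36, 2 were called higher and 2 lower (5.56% each), beside 11.0% and 6.82% of all genes. Eda2r, a death receptor, was at 3.21 and 3.25 (log2 level) in the double knockout and 3.43 and 3.32 in the control. It was under the 25th percentile on all 4 arrays, so a difference could not be read for it. Ccng1, an atypical cyclin, was at 9.06 and 8.91 against 9.36 and 9.06. Mdm2, the ligase that degrades p53, had a difference of -0.56 (adjusted p = 0.0917), and Zmat3 of 0.27. None of these 4 was called. The members called were the kinase Plk2 (2.09, with 7.40 and 8.74 against 6.27 and 5.70), the DNA repair gene Xpc (0.52, lost in 4 of the 8 alternatives that left no array out), the stress protein Sesn1 (-1.76) and the growth arrest gene Gadd45a (-0.91, with 7.91 and 7.96 against 8.94 and 8.73). With quantile normalization 1 was higher and 6 lower. Across fits lacking 1 array, 0, 0, 1 and 0 were higher and 0 lower in every fit, by limma.

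Amino acid transporters went both ways. Of 24 tested, 6 were called higher and 10 lower, with a median of -0.86. Slc38a1, which brings in glutamine, was at 10.43 and 9.72 (log2 level) in the double knockout and 7.13 and 7.39 in the control and rose 7.06-fold (2.82 ± 0.39, adjusted p = 0.00695). Slc7a11, the cystine importer, was at 6.14 and 6.47 against 3.86 and 3.99 and rose 5.20-fold (2.38 ± 0.23, adjusted p = 0.00341). Slc1a5, another glutamine carrier, was at 8.72 and 8.75 against 7.05 and 6.39 and rose 4.04-fold, and the large neutral carrier Slc7a5 rose 3.45-fold. Slc3a2, the heavy chain that partners Slc7a5 and Slc7a11, went the other way: it was at 10.77 and 10.77 against 11.45 and 11.69 (-0.80, adjusted p = 0.0496), and lost its call in 4 of the 8 alternatives that left no array out. Slc6a20a, a proline transporter of the brush border, was at 7.86 and 7.68 against 11.32 and 10.99 and fell 10.4-fold. Slc36a1, which takes up small amino acids with protons, was at 6.01 and 5.93 against 8.78 and 8.96 (log2 -2.90), and Slc7a8 fell 6.54-fold. Slc6a19, the main neutral carrier of the brush border, had a difference of -0.93 and missed the threshold (adjusted p = 0.0551). After removal of 1 array, 1, 5, 7 and 4 were called higher and 1, 3, 7 and 1 lower.

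Biosynthetic enzymes outside the Myc list were read next. Psat1, of serine synthesis, was at 7.85 and 8.24 (log2 level) against 6.07 and 6.08 and rose 3.92-fold (1.97 ± 0.19, adjusted p = 0.00341). Asns, which makes asparagine, rose 2.87-fold and Phgdh, the first serine enzyme, 2.41-fold. These belong to the list of unfolded protein and amino acid response genes, of which 6 of 36 tested were higher and 3 lower, median 0.06; Trib3, a stress-induced pseudokinase of that list, fell 3.03-fold. Once 1 array was removed, 2, 5, 5 and 4 of that list were higher and 0, 1, 2 and 1 lower. Of 41 tested genes of cholesterol and fatty acid synthesis, 23 (56.1%) were called higher and 0 lower by limma (2 at an unadjusted p under 0.05), median 0.85. Scd2, which desaturates fatty acids, was at 10.37 and 10.70 against 7.93 and 8.32 and rose 5.31-fold (2.41 ± 0.36). Fasn, the fatty acid synthase, was at 8.82 and 8.62 against 7.05 and 7.60 and rose 2.63-fold. Lss and Sqle, enzymes of the sterol ring, rose 2.85-fold and 2.69-fold, and Srebf2, the sterol regulator, by log2 0.93. With 1 array left out, 0, 7, 13 and 3 were called higher. Of 23 tested genes of glycolysis and lactate handling 7 (30.4%) rose and 0 fell by limma (0 at an unadjusted p under 0.05), median 0.51, among them the lactate carrier Slc16a1 (3.31-fold) and the aldolase Aldoc (2.75-fold, lost in 3 of the 8 alternatives that left no array out), while Ldha differed by 0.18. When single arrays were dropped, 0, 1, 4 and 2 were higher. Genes of mitochondrial respiration had few calls: 0 of 42 were higher by limma (1 at an unadjusted p under 0.05), beside 11.0% of all genes. Lower were 2 (4.76%, beside 6.82%), and the median was 0.03.

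**Figure D2:**
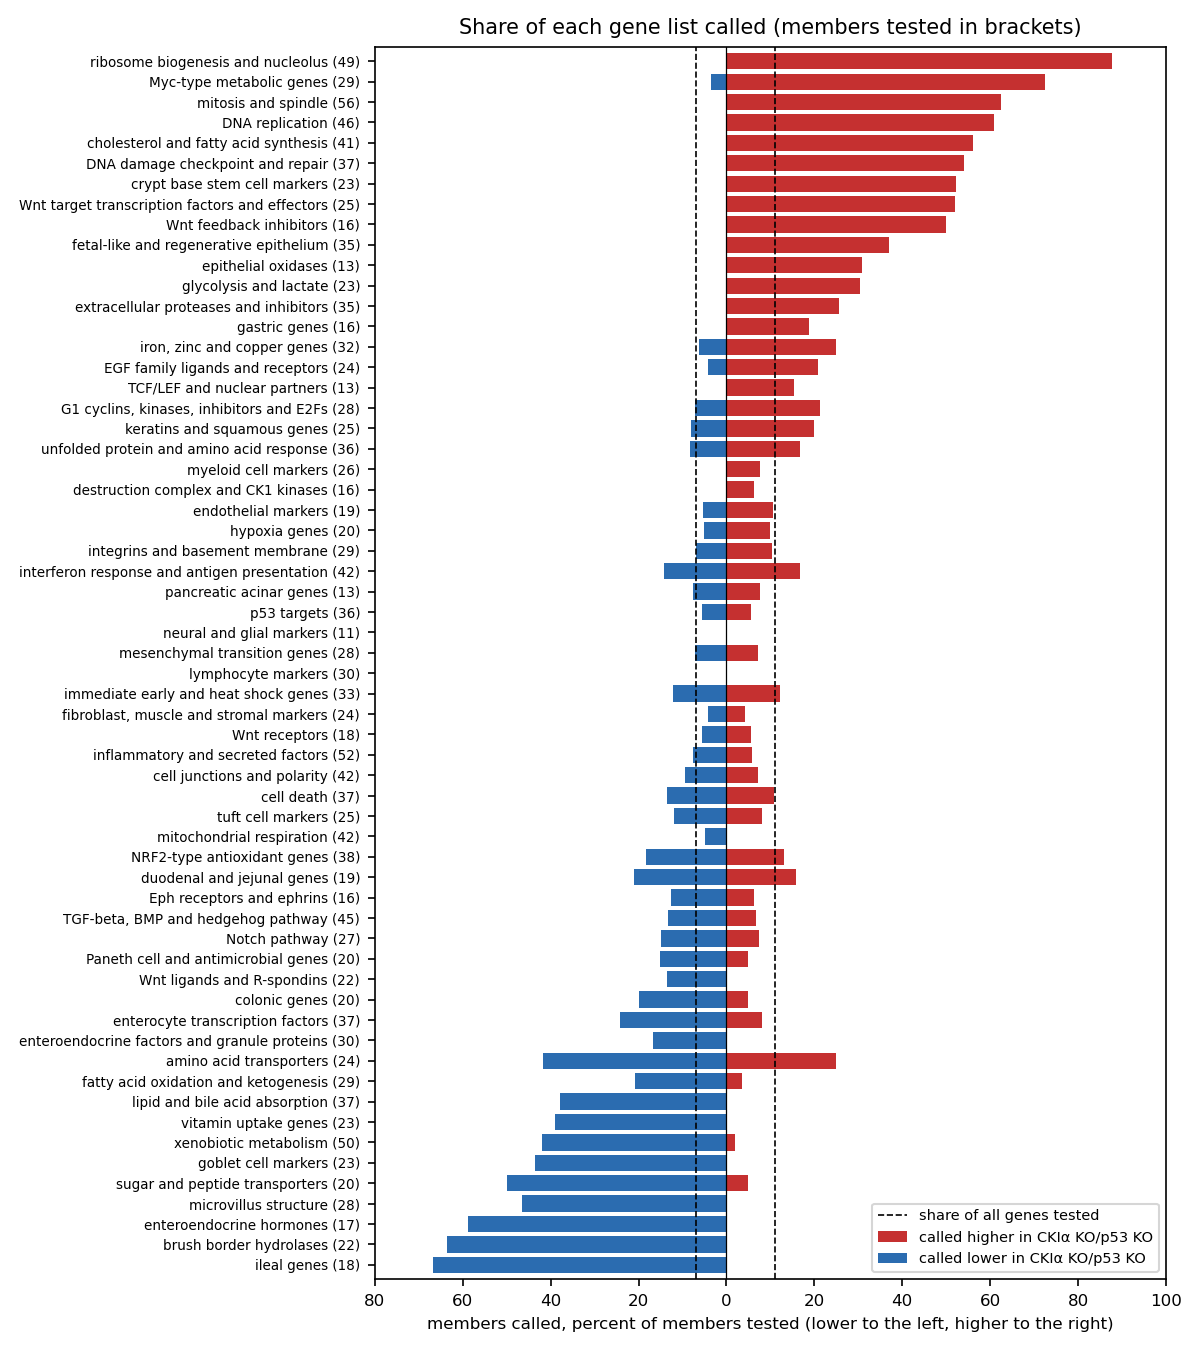
Share of tested members called lower (left) and higher (right) in each gene list with at least 10 tested members, in percent, with dashed lines at the share over all genes tested (6.82% lower, 11.0% higher). Ribosome biogenesis has the longest bar to the right (87.8%), and ileal genes (66.7%) and brush border hydrolases (63.6%) the longest to the left. Some genes sit in several lists, so the bars are not independent.

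Iron export and uptake genes held some of the largest values. Of 32 tested genes of iron, zinc and copper, 8 were called higher and 2 lower, median 0.42. Slc40a1, ferroportin, the only known iron exporter of mammals, was at 11.58 and 10.95 (log2 level) in the double knockout and 6.83 and 5.77 in the control and rose 31.2-fold (4.96 ± 0.74). Slc11a2, the iron importer of the brush border, was at 12.18 and 9.65 against 8.65 and 8.65; both arrays were higher, but the replicates differed by more than 2 units and the gene was not called (2.27, adjusted p = 0.0502). The zinc and iron carriers Slc39a8 and Slc39a14 rose 2.36-fold and 2.35-fold. Hephaestin (Heph), which oxidizes iron on export, differed by 0.01, the transferrin receptor Tfrc by 0.60 and Hfe by 0.19, none called, and the iron regulatory protein Aco1 fell (-0.99). Duodenal calbindin (S100g), which ferries calcium, was at 8.95 and 9.02 against 5.99 and 5.58 and rose 9.18-fold (3.20 ± 0.63). In the 4 leave-one-out fits, 0, 2, 6 and 3 metal genes were called higher and 0, 1, 1 and 0 lower.

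A set of genes known from fetal and regenerating gut epithelium moved upward: 13 of 35 tested (37.1%) were higher and 0 lower by limma (1 at an unadjusted p under 0.05), median 0.70. Clusterin (Clu), a secreted chaperone that marks revival stem cells, was at 8.28 and 8.42 (log2 level) in the double knockout and 5.68 and 5.36 in the control and rose 7.11-fold (2.83 ± 0.49, adjusted p = 0.00882). Il1rn, the interleukin 1 receptor antagonist, was at 8.27 and 8.28 against 5.58 and 5.44 and rose 6.80-fold. Ly6e rose 3.91-fold, the lysosomal protease Ctsl 3.69-fold and the membrane protein Emp2 3.14-fold. Anxa1 belongs to the same list and rose 17.6-fold (4.14 ± 0.97, adjusted p = 0.0212). Across fits lacking 1 array, 0, 0, 5 and 0 members were called higher. Neighbouring lists held fewer calls. Of 25 tested keratins and squamous genes 5 rose and 2 fell, with Krt23 at 7.82 and 8.68 against 5.04 and 5.12 and the adhesion gene Dsg3 at 5.50 and 5.56 against 3.58 and 3.32, both control values under their arrays' 25th percentiles; the calls were 0, 0, 3 and 0 higher and 0, 0, 1 and 0 lower with 1 array left out. Krt7 rose 2.99-fold and Sprr1a, a cornified envelope protein, 2.85-fold, though the call on Sprr1a was lost in 4 of the 8 alternatives that left no array out.

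Among extracellular proteases and their inhibitors, 9 of 35 tested (25.7%) rose and 0 fell by limma (2 at an unadjusted p under 0.05), median 0.13. Plat, the tissue plasminogen activator, was at 8.16 and 9.26 (log2 level) in the double knockout and 4.45 and 4.49 in the control and rose 18.9-fold (4.24 ± 0.46). Serpinb5, maspin, was at 7.70 and 8.22 against 5.05 and 3.67 and rose 12.1-fold (3.60 ± 0.90). Mmp14, a membrane-bound collagenase, was at 8.53 and 8.66 against 6.61 and 6.47, the heparanase Hpse rose 3.01-fold, and Htra1 was at 5.32 and 5.25 against 4.18 and 4.10. Plau, Timp1 and Mmp9 lay between 3.36 and 3.77 on the 4 arrays, near the arrays' 25th percentiles (3.59 to 3.69), so a difference could not be read for them. After removal of 1 array, 0, 2, 6 and 2 proteases were called higher. Mesenchymal transition genes gave 2 higher and 2 lower of 28 tested, median -0.05: vimentin (Vim) rose (1.45, adjusted p = 0.0473, lost in 3 of the 8 alternatives that left no array out), from 7.17 and 7.79 to 8.79 and 9.06, while the factors Zeb1 and Snai1 were at -0.11 and -0.19 and the epithelial cadherin Cdh1 at 0.26. Once 1 array was removed, 0, 0, 0 and 0 of them were higher and 0, 0, 1 and 0 lower by limma, where at an unadjusted p under 0.05 the full fit had 4 and 3. Integrins and basement membrane genes gave 3 higher and 2 lower of 29, with the laminin chain Lamc1 up 4.54-fold and the collagen receptor Itga2 2.96-fold. Of 42 junction genes 3 rose (7.14%, beside 11.0% of all genes) and 4 fell (9.52%, beside 6.82%). The pore-forming Cldn2 was at 8.68 and 8.96 against 6.78 and 6.33 and rose 4.8-fold. Cldn15 was at 9.17 and 9.04 against 10.80 and 10.93 and fell 3.39-fold (-1.76 ± 0.25).

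Epithelial oxidases that release superoxide or hydrogen peroxide were higher in part: 4 of 13 tested rose (30.8%) and 0 fell by limma (1 at an unadjusted p under 0.05). Nox1, of the crypt, was at 8.60 and 8.67 (log2 level) in the double knockout and 5.94 and 5.91 in the control and rose 6.56-fold (2.71 ± 0.44). Duoxa2, the maturation factor of Duox2, was at 8.63 and 8.71 against 5.70 and 5.45 and rose 8.55-fold (3.10 ± 0.33), and Duox2 at 8.44 and 7.70 against 5.54 and 6.20. Noxo1, an organizer of Nox1, rose by log2 0.80. The median of the list was -0.06, the same as all genes. Cyba, a subunit of several oxidases, was at 8.72 and 8.47 against 7.75 and 8.31 and was not called (adjusted p = 0.212). With 1 array left out, 1, 3, 3 and 2 were called higher. NRF2-type antioxidant genes went both ways, with 5 higher and 7 lower of 38 tested. Catalase (Cat) was at 7.96 and 7.19 against 11.05 and 10.72 and fell 9.90-fold (-3.31 ± 0.51), and Nfe2l2, the gene of NRF2, fell by 0.84 on the log2 scale.

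Interferon and antigen presentation genes also divided, with 7 higher and 6 lower of 42 tested. These were 16.7% and 14.3%, beside 11.0% and 6.82% of all genes, and the median was 0.06. Ifitm3, which blocks virus entry, was at 9.72 and 10.26 (log2 level) in the double knockout and 6.19 and 7.33 in the control and rose 9.37-fold (3.23 ± 0.45). Ifitm1 and Ifitm2 rose 5.36-fold and 3.49-fold, and Ifit2 was at 7.22 and 6.67 against 4.37 and 4.84. The genes that fell belong to the display of peptides: the class II gene H2-Ab1 was at 8.20 and 7.99 against 10.67 and 10.91 and fell 6.46-fold (-2.69 ± 0.62). H2-Eb1 fell 3.84-fold, the class II loading factor H2-DMa 2.83-fold, the peptide transporter Tap2 2.19-fold and the proteasome subunit Psmb8 2.02-fold. Cd74, the class II chaperone, had a difference of -1.51 and was not called (adjusted p = 0.0886). When single arrays were dropped, 0, 4, 3 and 1 of these genes were higher and 0, 0, 1 and 0 lower. Outside the list, Il15, an epithelial signal to intraepithelial lymphocytes, was at 6.15 and 5.77 against 8.72 and 7.94 and fell 5.14-fold.

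Enzymes of the brush border, the microvillus layer that digests and absorbs food, fell in large part. Of 22 tested hydrolases 14 (63.6%, beside 6.82% of all genes) were called lower and 0 higher by limma (1 at an unadjusted p under 0.05), median -1.88. The list also holds Pgc, which is in the gastric list too, and the lipase Lipe. Lipe is not a brush border enzyme and was called lower (log2 -2.37). Lactase (Lct) was at 8.47 and 6.84 (log2 level) in the double knockout and 12.27 and 12.17 in the control and fell 23.7-fold (-4.57 ± 0.94). The metalloprotease Mep1a was at 7.56 and 6.18 against 10.78 and 10.09 and fell 11.8-fold. Angiotensin-converting enzyme (Ace) was at 8.36 and 7.88 against 11.20 and 11.80 and fell 10.4-fold (-3.38 ± 0.57). Trehalase (Treh) fell 7.11-fold and the peptidase Naaladl1 5.93-fold. Sis itself fell 3.77-fold (-1.91 ± 0.42) yet stayed bright at 10.55 and 11.32. The fall was not shared by every hydrolase: Anpep, Alpi and Dpp4 had differences of -0.57, -0.55 and -0.83 and were not called, and Akp3, an alkaline phosphatase, was at 10.51 and 8.28 against 7.52 and 6.93. In the 4 leave-one-out fits, 0, 4, 11 and 1 hydrolases were called lower. Structural genes of the microvillus moved by smaller amounts, with 13 of 28 lower (46.4%) and 0 higher by limma (0 at an unadjusted p under 0.05), median -0.56. Villin (Vil1) went from 12.41 and 12.50 to 11.94 and 11.66 (-0.66, adjusted p = 0.027), Myo1a by -0.68 and Espn by -0.89, while the scaffold Pdzk1 fell 6.48-fold. Across fits lacking 1 array, 0, 0, 4 and 0 of them were lower.

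Carriers of sugars and peptides gave 10 lower of 20 tested and 1 higher, median -0.82. Slc5a1, the main glucose importer of the gut, was at 10.98 and 11.44 (log2 level) in the double knockout against 12.30 and 12.85 in the control and fell 2.58-fold. Slc15a1, the peptide importer, fell 3.27-fold and Slc2a7, a hexose carrier, 12.9-fold (-3.69 ± 0.58). Slc2a2 and Slc2a5, for glucose and fructose, had differences of -0.69 and -0.68 and were not called. After removal of 1 array, 1, 5, 7 and 5 were called lower. Of 23 tested vitamin uptake genes 9 fell (39.1%) and 0 rose by limma (3 at an unadjusted p under 0.05). Cubn and Amn form the receptor for vitamin B12 with its carrier protein; Cubn was at 7.98 and 7.16 against 11.70 and 11.53 and fell 16.6-fold, and Amn was at 6.79 and 6.79 against 8.66 and 8.74 (-1.91). Lrat, which stores vitamin A as an ester, was at 4.40 and 4.33 against 7.38 and 6.94 and fell 6.92-fold (-2.79 ± 0.31), and Bco1, which cleaves carotene, fell 3.07-fold. Once 1 array was removed, 0, 6, 6 and 4 vitamin genes were called lower.

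Lipid absorption genes fell in part: 14 of 37 tested were lower (37.8%) and 0 higher by limma (2 at an unadjusted p under 0.05), median -0.71. Cd36, a fatty acid receptor, was at 7.03 and 7.10 (log2 level) in the double knockout and 10.22 and 10.04 in the control and fell 8.36-fold (-3.06 ± 0.78). Slc27a2, a fatty acid carrier, fell 8.60-fold, Apoc3, a lipoprotein component, 6.57-fold, the sterol pump Abcg5 3.84-fold and the cholesterol importer Npc1l1 2.32-fold. The apolipoprotein Apob fell from 12.60 and 12.47 to 11.98 and 11.74 (-0.68, adjusted p = 0.044). Apoa1 was at 13.12 and 13.07 against 13.47 and 13.51 and Fabp2, a fatty acid binder, at 12.70 and 12.35 against 13.21 and 13.07; both arrays were lower in each, and neither gene was called (adjusted p = 0.126 and 0.0676). With 1 array left out, 0, 1, 9 and 0 were called lower. Fatty acid oxidation genes gave 6 lower and 1 higher of 29, median -0.31, where 0, 0, 2 and 0 were lower with 1 array left out. Of the xenobiotic metabolism genes, 21 of 50 tested (42.0%) fell and 1 rose, median -1.08. Aldh1a1, which makes retinoic acid, was at 8.88 and 8.50 against 11.91 and 11.20 and fell 7.29-fold (-2.87 ± 0.40). Ces2a, a carboxylesterase, was at 7.72 and 7.73 against 10.83 and 10.26, and Ugt2a3, a glucuronosyltransferase outside the list, fell 11.4-fold. When single arrays were dropped, 0, 13, 14 and 3 were called lower. The member that rose was Cyp1b1, while the aryl hydrocarbon receptor Ahr, a known inducer of it, was at 7.01 and 7.02 against 7.62 and 7.81 and Cyp1a1 fell 2.41-fold.

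Regional genes and the transcription factors of enterocytes were read next. Of 18 tested ileal genes 12 fell (66.7%) and 0 rose by limma (0 at an unadjusted p under 0.05), median -1.15. This list is not separate from the others: Cubn, Amn and Fgf15 were also counted in lists above, and Nts, Pyy and Guca2a in lists below. Fgf15, the ileal hormone that answers bile acids, was at 5.73 and 5.30 (log2 level) against 7.03 and 6.90 (-1.45), and the guanylin genes Guca2b and Guca2a fell 2.50-fold and 2.30-fold. Fabp6, the ileal bile acid binder, varied widely within groups, at 8.79 and 5.0 against 10.88 and 8.81, and was not called. In the 4 leave-one-out fits, 0, 4, 9 and 1 ileal genes were lower. Duodenal and jejunal genes gave 3 higher and 4 lower of 19, colonic genes 1 and 4 of 20, and gastric genes 3 and 0 of 16 (limma, 3 lower at an unadjusted p under 0.05). The gastric protease Ctse was at 7.21 and 7.46 against 5.25 and 5.21 and rose 4.30-fold (2.11 ± 0.25). Of 37 enterocyte transcription factors 3 rose and 9 fell, median -0.36. Hnf4g was at 9.98 and 10.26 against 11.76 and 11.90 and fell 3.26-fold (-1.71 ± 0.29), whereas its relative Hnf4a was at 10.85 and 10.65 against 10.93 and 10.86 and was not called. The oxysterol receptor Nr1h3 fell 4.10-fold, Maf 2.59-fold and the vitamin D receptor Vdr 2.39-fold, while Ehf and Tgif1 rose 3.32-fold and 2.86-fold. The master factors Cdx2, Cdx1, Gata4 and Klf5 had differences of -0.15, -0.06, -0.36 and 0.25, none called. Across fits lacking 1 array, 0, 0, 1 and 0 were higher and 0, 0, 4 and 0 lower. The HNF4 motif CAAAGTCC was found for 4 of 20 hydrolase promoters and 1 of 28 of lipid and bile acid absorption (3.57%), beside 1.81% of tested genes and 2.84% of genes called lower.

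Among secretory cell markers, hormones and goblet markers had the highest shares of falls, and enteroendocrine factors, Paneth and tuft lists had fewer. In bulk samples, fewer cells of a type and less RNA per cell cannot be told apart, here and in every list above. Of 17 tested enteroendocrine hormones 10 fell (58.8%) and 0 rose by limma (0 at an unadjusted p under 0.05), median -0.66. Somatostatin (Sst) was at 5.80 and 5.68 (log2 level) in the double knockout and 8.64 and 8.40 in the control and fell 6.86-fold (-2.78 ± 0.47). The incretin Gip was at 6.49 and 6.57 against 9.11 and 9.08, and proglucagon (Gcg) at 6.12 and 6.03 against 8.30 and 7.96. Neurotensin (Nts) fell 4.84-fold, peptide YY (Pyy) 3.08-fold and Cck 2.82-fold. Of 30 enteroendocrine factors and granule proteins 5 fell and 0 rose by limma (1 at an unadjusted p under 0.05), with Chga down 2.63-fold, while Neurog3, the factor that starts the lineage, differed by 0.10. After removal of 1 array, 0, 2, 4 and 1 hormones and 0, 3, 2 and 0 factors were lower. Of 23 goblet markers 10 fell (43.5%) and 0 rose by limma (0 at an unadjusted p under 0.05), median -0.73. Muc2, the main mucin, went from 12.43 and 12.48 to 11.14 and 11.20 (-1.28), Clca1 from 12.26 and 12.24 to 10.69 and 9.16, and Tff3 fell 2.81-fold. Once 1 array was removed, 0, 1, 4 and 0 goblet markers were lower. Of 20 Paneth and antimicrobial genes 1 rose, Mmp7, and 3 fell, median 0.14. Lysozyme (Lyz1) was at 13.01 and 13.08 against 12.48 and 12.64 and was not called, whereas the lectins Reg3a and Reg1 were at 4.83 and 6.34 against 9.88 and 8.81 and at 4.71 and 5.82 against 8.80 and 8.69, and fell 13.6-fold and 11.2-fold. Of 25 tuft cell markers 2 rose and 3 fell, median -0.41: Avil was at 7.95 and 8.32 against 5.74 and 5.74 and rose 5.28-fold, Cd24a rose 2.51-fold, and the leukotriene enzyme Ltc4s fell (-1.16).

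Other signalling pathways were read last among the epithelial lists. Of 24 EGF family genes and partners 5 rose (20.8%, beside 11.0% of all genes) and 1 fell, median -0.02; the feedback phosphatase Dusp4 was at 7.69 and 8.48 (log2 level) against 5.48 and 5.78 and rose 5.48-fold, the factor Etv5 4.39-fold and the ligand Btc 3.18-fold, while Egfr differed by 0.07. With 1 array left out, 0, 1, 3 and 0 were higher. Of 45 genes of the TGF-β, BMP and hedgehog pathways 3 rose and 6 fell (13.3%, beside 6.82% of all genes); Tgfbr2, the TGF-β receptor, was at 8.85 and 9.01 against 5.53 and 6.15 and rose 8.51-fold (3.09 ± 0.48, adjusted p = 0.00771). Its inhibitor Smad7 fell by 0.75 on the log2 scale, and the ligands Bmp8a and Bmp3 by 1.22 and 0.83. In the Notch pathway 2 of 27 rose and 4 fell (14.8%), with Notch2 up 2.37-fold and the ligand Dll1 down from 7.48 and 7.49 to 5.85 and 6.30, Dll4 down 2.00-fold and the inhibitor Numb down 2.11-fold. Among 33 immediate early and heat shock genes 4 rose and 4 fell; Fosb was at 7.03 and 6.61 against 9.10 and 9.35 and fell 5.28-fold, and Atf3 fell 2.58-fold. Of 37 cell death genes 4 rose and 5 fell, of 20 hypoxia genes 2 and 1, of 52 inflammatory and secreted factors 3 and 4, and of 16 Eph receptors and ephrins 1 and 2.

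Markers of other cells were measured beside these results. Of 30 tested lymphocyte markers 0 were called in either direction by limma (0 higher and 3 lower at an unadjusted p under 0.05), median -0.21. Their summed intensity was 9432 and 3434 in the double knockout and 3509 and 8975 in the control, so it was high on double knockout replicate 1 and control replicate 2. Cd8a, for example, was at 9.28 and 7.86 (log2 level) against 8.21 and 9.48, and Ms4a1 and Klre1 were dim on all 4 arrays. The mast cell protease Mcpt1 parted the same arrays further, at 11.57 and 4.38 against 6.19 and 9.94, and the myeloid list, with 2 of 26 higher (Cd68 by 0.89 and Cd14 by 0.81) and 0 lower (4 unadjusted), summed to 6926 and 1441 against 1849 and 3992. The lymphocyte and myeloid sums, Cd8a and Mcpt1 thus differed more within groups than between them. Cd68, at 5.91 and 6.19 against 5.08 and 5.24, and Cd14, at 5.54 and 6.02 against 4.92 and 5.01, did not. Of 24 stromal markers 1 rose (Vim) and 1 fell (Fbln1, -1.55), with sums of 1793 and 1703 against 2206 and 1929 and with Lum, Ogn, Dpt and Rgs5 dim. Endothelial markers gave 2 higher and 1 lower of 19 (sums 743 and 667 against 515 and 566), with Lyve1 and Sox17 up 2.77-fold and 4.23-fold and Emcn dim; the call on Lyve1 was lost in 4 of the 8 alternatives that left no array out. Pancreatic acinar genes gave 1 and 1 of 13, summing to 3355 and 2746 against 5777 and 5606. By limma 0 of 4 red cell and platelet markers (1 lower at an unadjusted p under 0.05) and 0 of 11 neural markers (4 lower) were called. The part of these cells in the results was not tested.

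The same contrast in the other backgrounds gave far fewer calls. With p53 and p21 present, CKIα KO against CKIα Het gave 4 higher (0.0239%) and 0 lower (0%) by limma, with 1520 genes (9.09%) at an unadjusted p under 0.05. Without p21 it gave 244 higher (1.46%) and 86 lower (0.514%), with 3881 (23.2%) unadjusted. Each background had its own CKIα Het arrays, so no array is shared between these comparisons. Of the 1841 genes called higher without p53, 1498 were also above 0 with both genes present (4 called, median 0.23) and 1754 without p21 (179 called, median 0.64), beside a median of 0.95 without p53. Of the 1140 called lower, 914 were below 0 with both genes (0 called, median -0.24) and 1018 without p21 (46 called, median -0.40), beside -0.89. Since the genes were chosen for passing without p53, a smaller value elsewhere is partly set by that choice. Ribosome biogenesis had a median of 0.38 with both genes and 1.13 without p21, mitosis 0.12 and 0.93, DNA replication -0.07 and 0.79, brush border hydrolases -0.32 and -0.70, and Wnt feedback inhibitors 0.13 and 0.10. Other lists had medians without p21 as large as those without p53: Wnt target factors and effectors stood at 0.39 with both genes and 1.11 without p21 beside 1.11 without p53, crypt base markers at 0.15 and 0.96 beside 0.93, goblet markers at -0.61 and -0.78 beside -0.73, and hormones at -0.33 and -0.83 beside -0.66. The p53 target list stood at 0.25 and 0.46, with 15 of its 36 members called higher without p21.

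**Figure D3:**
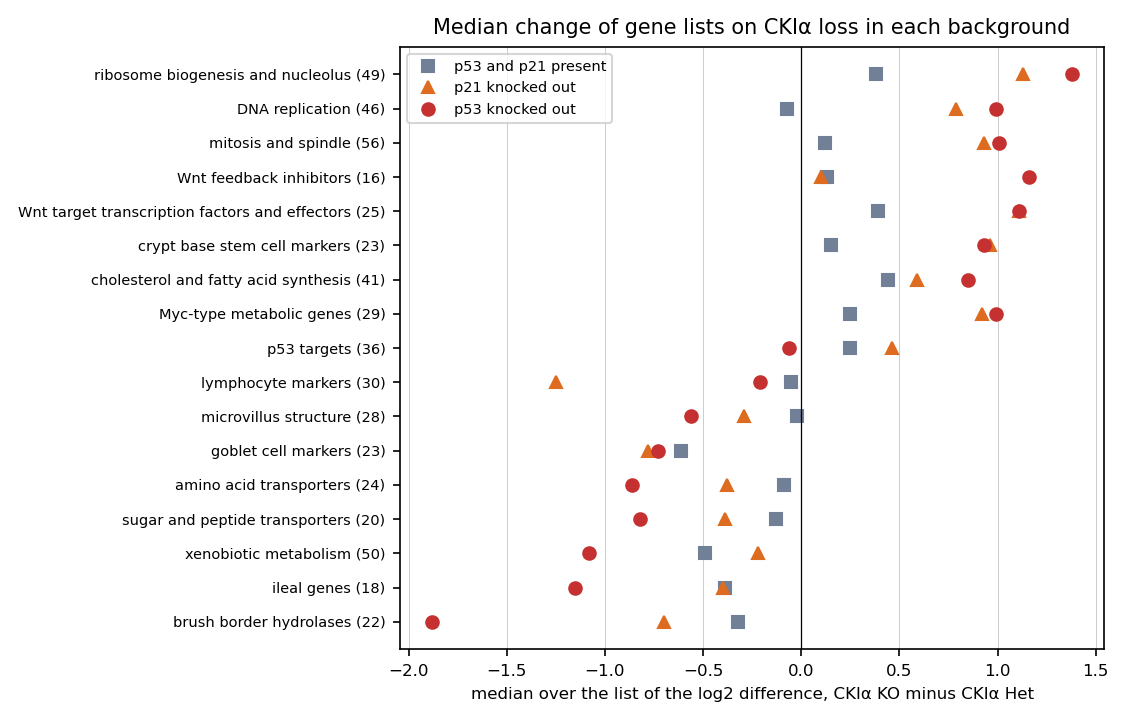
Median log2 difference of CKIα KO against CKIα Het for each gene list, with p53 and p21 present, without p21 and without p53. Ribosome biogenesis runs from 0.38 with both genes to 1.13 without p21 and 1.38 without p53, and the p53 targets stand at 0.25, 0.46 and -0.06.

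The difference between backgrounds was tested gene by gene as an interaction in limma, and few genes passed. Against the background with both genes, 2 genes had a higher CKIα effect without p53 (0.0120%) and 1 a lower one (0.00598%), with 2485 (14.9%) at an unadjusted p under 0.05. Against the background without p21 there were 1 and 1 (0.00598% each), with 1457 (8.71%) unadjusted. Cyp1b1 was called in both, by log2 2.72 ± 0.27 (adjusted p = 0.0154) and 2.52 ± 0.27 (adjusted p = 0.0291); its levels on the 8 arrays of the other groups lay between 3.53 and 4.08, near the control values given above. Dglucy was also called in both, by -2.45 ± 0.24 (adjusted p = 0.0154) and -2.92 ± 0.24 (adjusted p = 0.00617), and the other 8 arrays lay between 7.86 and 8.77. Slc38a4 was called against the background with both genes (2.98 ± 0.36, adjusted p = 0.0496) and not against that without p21 (2.18 ± 0.36, adjusted p = 0.163); CKIα KO/p21 KO arrays read 4.41 and 5.37 and the remaining ones between 3.52 and 3.97. Double knockout arrays thus stood alone in Cyp1b1 and Dglucy. With 1 array of the 12 left out in turn, the adjusted p against both genes ran from 0.00748 to 0.162 for Cyp1b1, from 0.00295 to 0.152 for Dglucy and from 0.000898 to 0.434 for Slc38a4. Against the background without p21 it ran from 0.00868 to 0.147 for Cyp1b1 and from 0.000526 to 0.0712 for Dglucy. The p53 targets Eda2r and Ccng1 had lower effects than without p21, by -3.88 ± 0.53 and -2.32 ± 0.33, and did not pass (adjusted p = 0.0991 and 0.111). Eda2r was under the 25th percentile on all 4 arrays without p53 and passed the filter only through other groups. Its value thus cannot be read as an effect without p53.

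**Figure D4:**
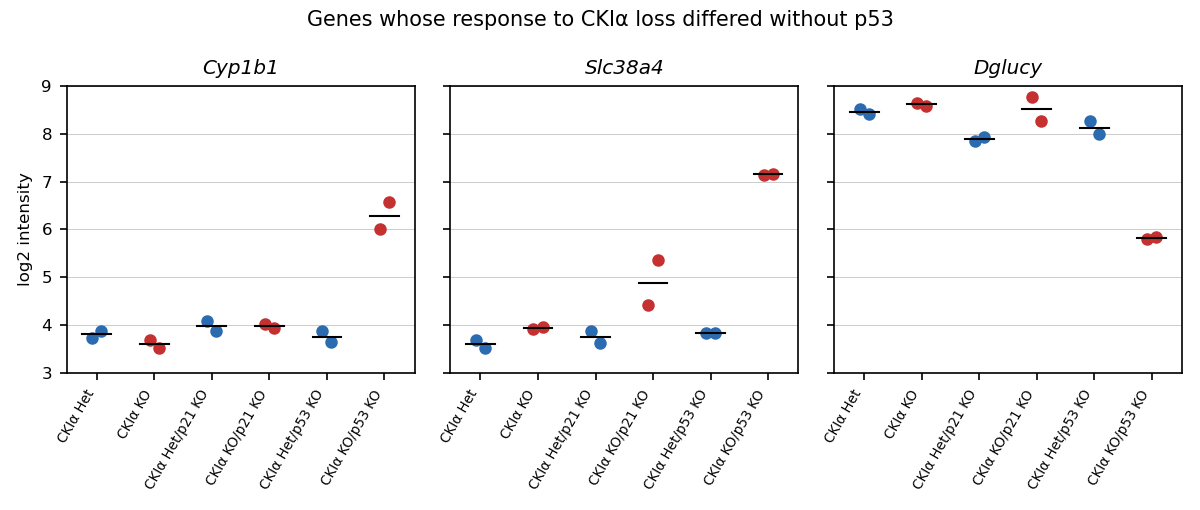
Log2 level of Cyp1b1, Slc38a4 and Dglucy on each array of the 6 groups, with a bar at each group mean. For Cyp1b1 the CKIα KO/p53 KO arrays lie at 6.01 and 6.57 and all arrays of the other groups at or below 4.08, and for Dglucy they lie at 5.81 and 5.85 with the others at or above 7.86.

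Genes that changed together sometimes lay side by side. Counting tested genes in the order of the RefSeq annotation of GRCm38.p6, 13 runs of at least 4 neighbours were called in 1 direction. How many such runs would arise from a shuffled gene order was not computed. Some held small nucleolar RNA genes: Ncl with Snora75, Gm24148 and Snord82, and Tlcd1 and Rpl23a with Snord42a and Snord42b. Whether such probe sets read separate transcripts was not tested. A run of 6 risers on chromosome 4 held Dennd4c, Rps6, Acer2, Mllt3, Focad and Hacd4. A run of 4 risers on chromosome 15 held Scaf11 and the amino acid carriers Slc38a1, Slc38a2 and Slc38a4, and 1 on chromosome 13 held Sox4, Cdkal1, E2f3 and Mboat1. Runs of fallers were mostly gene families: Akr1c14, Akr1c13 and Akr1c19 with Tubal3 and Ucn3 on chromosome 13, the Ugt2b genes Ugt2b34, Ugt2b35, Ugt2b36 and Ugt2b5 on chromosome 5, and Ces2a, Ces2b and Ces2e with Ciao2b on chromosome 8. Members of such families have similar sequences, and cross-hybridization of their probes was not tested. These runs were picked after their calls were seen.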

How the data were processed

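The deposited table holds 13 Affymetrix arrays of mouse enterocyte RNA, with 35556 probe sets. Per the labels' protocols, the authors extracted the intensities with Expression Console 1.1 by the RMA Sketch method and normalized them to the median. The deposited numbers are taken as log2 intensities: no base is stated, and it was inferred from array medians between 4.96 and 5.12. For arrays, their number limits the precision.

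Of the probe sets, 21789 carry 1 gene symbol, 1621 several and 12146 none, and only the first kind was named. Where a gene had several, the probe set with the highest mean was used. Genes were tested if at least 2 of the 12 arrays with an assigned group exceeded that array's 25th percentile. Symbols of 16665 of the 16721 genes were found in the RefSeq table for GRCm38.p6, which also gave promoters and gene order, and 0 differed. Limma 3.58.1 in R 4.3.3 was fitted to the 12 arrays with 1 mean per group (6 residual degrees of freedom). Two-sided p-values were corrected with Benjamini-Hochberg over all genes tested, separately for each comparison. The code was tested on simulated data.

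The comparison, the 61 gene lists and the promoter motifs were chosen with earlier results of these data known. Lists were described by counts and medians of the members that passed the filter, with no set test. Some genes sit in several lists, so counts of different lists are not independent. The text names the 25 called genes with the largest and the 25 with the most negative difference. In each list it draws on up to 5 called members with the smallest p, or the 2 with the smallest p where fewer than 2 were called. It also names genes called between backgrounds and Csnk1a1. Symbols of predicted, Riken, olfactory and like types were passed over in the first set, and other list members are given where a group is described. A gene whose value lay under the 25th percentile on all 4 arrays of the comparison is called dim. The alternatives were no filter, a filter at the median, the mean of probe sets, a further quantile normalization, an intensity trend, array weights, a fit of the compared arrays only, the replicate number as a block, and each array left out.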

Additional observations from a re-analysis of the deposited data

Results flagged for a closer look

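Between backgrounds, limma's interaction test called 2 genes whose CKIα effect was higher without p53 than with p53 and p21 present, and 1 whose effect was lower. Slc38a4, an amino acid transporter, differed by 2.98 (log2) and Cyp1b1, a cytochrome P450, by 2.72. Dglucy, a D-glutamate cyclase, differed by -2.45. Against the background without p21, the test called 1 gene higher, Cyp1b1 by 2.52, and 1 lower, Dglucy by -2.92. Their values on every array are given above.

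The array whose title and genotype labels disagree entered no comparison, and its levels at the called genes were read. The array lay above both CKIα Het/p53 KO arrays for 1691 of the 1841 genes called higher and below both for 1069 of the 1140 called lower. Those genes were chosen for a difference from the same control arrays, so such counts are partly set by that choice. The share over all genes was not computed, and no conclusion is drawn from these counts. Axin2 was at 8.91 (log2 level) on it, Cybrd1 at 11.70, Npm1 at 9.65 and Slc5a4a at 5.31. The p53 targets Ccng1, Eda2r and Zmat3 were at 11.22, 6.07 and 7.12 on it, while both CKIα KO/p53 KO arrays had Ccng1 at or below 9.06 and Eda2r at or below 3.25. Cyp1b1, Slc38a4 and Dglucy were at 3.81, 3.76 and 8.32. Which group the array belongs to cannot be told from its labels.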

How the results depend on the processing

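The CKIα effect without p53 kept its direction in each of the 533 called genes that were named or in a list, under all 20 alternatives. Those genes were chosen for their calls, so a kept direction is largely set by that choice. Alternatives that drop arrays of other groups leave the difference itself unchanged. Of the 533 genes, 404 kept their call in each alternative that left no array out and tested them. The counts stayed within 1.5 times the main ones there, and ran from 10 to 2207 higher and from 10 to 1439 lower with 1 array of the 12 left out; the fall to 10 came without CKIα Het/p53 KO replicate 1. Replicate numbers did not pair the samples (correlations of replicate differences from -0.162 to 0.248); with the replicate number as a block, 1797 genes were higher and 1120 lower. For the interaction against both genes present, 1 gene was higher with no filter, with the mean of probe sets and with the replicate block, and 61 higher and 48 lower with only the arrays compared. Quantile normalization gave 2 lower, and leaving out 1 array 0 to 142 higher and 0 to 101 lower. For the interaction against the background without p21, the replicate block gave 2 higher and 2 lower, only the arrays compared 0 and 0, and leaving out 1 array 0 to 32 higher and 0 to 96 lower. The cause of these shifts was not tested. Of genes not called, Csnk1a1 turned to 0.08 after quantile normalization and ran from -0.16 to 0.06 with 1 array left out, and Slc4a1 from -0.29 to 0.04. Quantile normalization ended 89 of the 533 calls. The median of all genes lay between -0.07 and 0.05 over the alternatives.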
